A study of Mus musculus with 23 samples.

Results

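The ear pinna of wild-type mice was compared 2 h after a hole was punched through it with the pinna at 0 h, on 3 arrays against 3, which are 6 of the 23 arrays of the series and were chosen by their titles. All mice of both groups were C57BL/6J, carried the Rhbdf2+/+ genotype and were 4 weeks old, and the study's design text gives them as female. In the 2 h group a punch had made a 2-mm hole and a 3-mm biopsy then took the 1-mm ring of tissue around it. Titles call the tissue of all wild-type arrays control tissue, at 0 h and after the punch alike. The size and place of the piece taken at 0 h are not given in the sources used here. Wounding and the shape of the tissue piece therefore cannot be told apart between 2 h and 0 h. Rims collected 15 min after the punch (3 arrays) were cut by the same biopsy and serve below as a second reference. Tissue from 24 h after the punch (3 arrays), and from Rhbdf2cub/cub mice of the strain B6.Cg-Rhbdf2cub/J at 0 h and 2 h (3 arrays each), gives the later course and the genotype contrast. The mutant is called cub here. Titles call every array a separate biological replicate.

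Values are log2 RMA values, so a difference of 1 is a 2-fold change in signal, and 19938 genes were tested, each by 1 row of the table. A gene was called when its limma p-value, adjusted over all genes by the Benjamini-Hochberg method, was under 0.05. Differences are given as 2 h minus 0 h with their standard error (SE), and the number of arrays limits their precision. The keratins Krt5, Krt14 and Krt10, which mark the basal and upper epidermis, lay between 12.63 and 13.24 on the 6 arrays, above the 90th percentile of gene levels (9.84). Array medians over all rows lay between 6.37 and 6.46 in the series. A few genes set single arrays apart from the other 2 of their group. On 0 h replicate 2, 7 genes were at least 1 log2 unit above the mean of the other 2 arrays, and 5 of them were called higher at 2 h: Ptgs2, Il1b, Nr4a1, Fosb and Ccl3. On 2 h replicate 3, 12 genes were above the others by as much, among them the interferon-induced genes Iigp1, Cxcl9, Ifit1, Oasl2, Gbp3 and Gbp7, and 3 were below. In whole tissue, fewer cells of a type and less RNA per cell cannot be told apart.

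A skin wound is first read by the cells already there. Damage, stretch and released ATP activate MAP kinases and NF-kB, and within minutes to hours these switch on immediate early genes, which need no new protein to be transcribed. The early wave includes transcription factors, inhibitors that shut the same pathways down, and secreted signals that call in neutrophils and monocytes and free EGFR ligands for the epidermis.

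At 2 h, 1590 of the 19938 genes were called, 793 higher (3.98%) and 797 lower (4.00%). The sizes were unequal: 100 genes rose at least 2-fold (0.502%) and no called gene fell that far. The median difference was 0.42 among genes called higher and −0.29 among those called lower, against −0.01 over all genes. Unadjusted p-values were under 0.05 for 4007 genes. Of the 100 genes that rose at least 2-fold, 65 stand on the 39 gene lists used here, which cover 634 tested genes. The lists were chosen with earlier results of these data known, so this share is no independent evidence about the listed pathways. Counts of calls depended on single arrays, more for falls than for rises: without 0 h replicate 2 there were 983 calls, and without 2 h replicate 2 there were 703 higher and 378 lower.

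**Figure D1:**
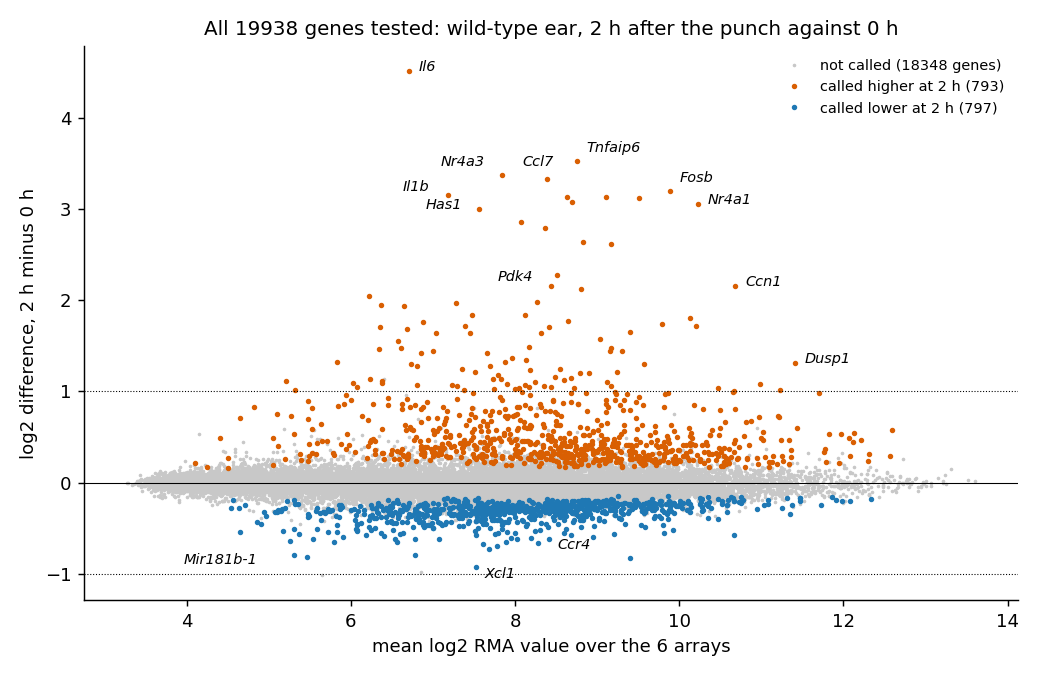
Each point is 1 of the 19938 genes tested, with its mean log2 RMA value over the 6 arrays on the x axis and the log2 difference, 2 h minus 0 h, on the y axis. The 793 genes called higher (orange) reach 4.51 at Il6, while the 797 called lower (blue) stop at −0.93 at Xcl1; dotted lines mark a 2-fold change.

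Transcription factors of the AP-1 family rose together. AP-1 factors are dimers of FOS, JUN, ATF and MAF proteins that carry growth and stress signals to DNA. Of 12 tested, 10 were called higher and 0 lower, with a median difference of 1.23. Fos was at 6.98, 7.53 and 6.97 on the 0 h arrays and at 10.21, 10.16 and 10.34 on the 2 h arrays. The groups were far apart, and the difference of 3.08 ± 0.26 (SE) was an 8.44-fold rise (adjusted p = 4.06e-08). Fosb was uneven at 0 h, at 7.19, 9.05 and 8.63, and even at 2 h, at 11.67, 11.43 and 11.37 (3.20 ± 0.34, adjusted p = 1.13e-06). Fosl1, which encodes FRA1, was at 6.76, 7.35 and 7.10 and then at 10.21, 10.08 and 10.31 (3.13 ± 0.14). Atf3, a stress-induced partner that often represses, was at 7.54, 8.37 and 7.93 and then at 11.12, 11.02 and 11.07 (3.12 ± 0.19). Junb rose by 1.44, Maff by 1.42, Jun by 1.04, Fosl2 by 0.98, Mafk by 0.77 and Jund, the least, by 0.48. Batf and Batf3, AP-1 members of lymphocytes and dendritic cells, differed by 0.23 and −0.00 and were not called.

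The NR4A orphan receptors, the EGR zinc fingers and other immediate early genes moved the same way. Of 27 tested, 24 were called higher and 0 lower (median 0.89). Nr4a3 was at 5.99, 6.34 and 6.14 at 0 h and at 9.55, 9.52 and 9.50 at 2 h, a 10.3-fold rise (3.37 ± 0.16, adjusted p = 6.07e-12). Nr4a2 rose by 3.13 and Nr4a1 by 3.05, although Nr4a1 was at 8.04, 9.52 and 8.56 at 0 h, with replicate 2 high. Egr1, the founding EGR factor, was at 8.95, 9.62 and 9.11 and then at 11.01, 11.02 and 11.07 (1.81 ± 0.14). The 2 h arrays of Egr1 lay close together and did not overlap with the 0 h arrays. Egr2 rose by 0.82 and Egr3 by 0.43, and Egr4 (0.11) and Npas4 (−0.01), a factor of active neurons, were not called. Ccn1, a matrix protein induced by stretch and YAP, rose by 2.16. The nuclear protein gene Csrnp1 rose by 1.77, the growth-arrest gene Btg2 by 1.71, the clock repressor gene Bhlhe40 by 1.44, and Myc by 1.08.

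Inhibitors that damp MAP kinase signalling rose in most cases. Of 16 tested, 11 were called higher and 0 lower (median 0.48). Dusp1, a phosphatase of p38 and JNK, was at 10.63, 10.90 and 10.72 at 0 h and at 12.03, 12.02 and 12.13 at 2 h (1.31 ± 0.13, adjusted p = 4.73e-07). Dusp6, the phosphatase of ERK, rose by 1.21, Errfi1, which binds and blocks EGFR, by 1.02, Phlda1 by 0.77, Dusp8 by 0.75 and Dusp5 by 0.73. The Sprouty genes Spry4 and Spry1 rose by 0.65 and 0.43, while Spry2 (0.27) and the Spred genes Spred1 (0.02) and Spred2 (−0.05) were not called. A second row of Dusp8 differed by 0.28.

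Feedback genes of NF-kB and of inflammatory mRNA decay were called higher in 15 of 20 cases and lower in 0 (median 0.49). Bcl3, an atypical IkB protein, was at 7.08, 7.26 and 7.48 and then at 9.14, 9.25 and 9.38 (1.98 ± 0.14, adjusted p = 2.86e-09). Zfp36, which encodes tristetraprolin and removes cytokine mRNAs, was at 8.90, 8.97 and 8.87 and then at 10.61, 10.62 and 10.74 (1.74 ± 0.09). Tnfaip3, which encodes the deubiquitinase A20, rose by 1.64, the RNase gene Zc3h12a by 1.05, Tnip3 by 1.01 and Nfkbiz by 0.89. The inhibitor gene Nfkbia rose by 0.68. Of 4 subunit genes 3 were called higher (median 0.44), against 8 of 12 inhibitor genes (median 0.485) and 4 of 4 mRNA decay genes (median 0.843). Among the subunits Rel rose by 0.51, Nfkb2 by 0.47 and Rela by 0.41, and Relb differed by 0.12 and was not called.

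Promoters of these genes were read from RefSeq (GRCm38.p6), 250 bases before the start, for 15614 of the genes tested. An entry was searched on both strands for the AP-1 motif TGANTCA, the cyclic AMP response element (CRE) TGACGTCA, the EGR motif GCGTGGGCG, and the kB and CArG motifs by name. The 4 sequences below come from the AP-1, EGR, NF-kB and chemokine lists and show where the motif lies before the start. They belong to the genes with the largest rise among those with an entry that was used and held a motif. No entry was used for Ccl7 (3.33), Fosl1 (3.13), Ccl2 (2.86) and Egr1 (1.81), which rose more than Csrnp1 (1.77), so their promoters were not compared. Capitals mark the kB motif in Fosb (chr7:19310046-19310295, minus strand), Fos (chr12:85473640-85473889, plus strand) and Cxcl2 (chr5:90903649-90903898, plus strand), where matches on both strands overlap, and the AP-1 motif in Csrnp1 (chr9:119983024-119983273, minus strand), where it occurs at 2 places.
Fosb: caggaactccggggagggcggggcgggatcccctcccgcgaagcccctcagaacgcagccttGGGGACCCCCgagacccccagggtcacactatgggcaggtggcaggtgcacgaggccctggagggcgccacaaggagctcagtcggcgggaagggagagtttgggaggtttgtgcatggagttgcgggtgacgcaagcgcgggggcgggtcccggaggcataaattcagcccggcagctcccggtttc
Fos: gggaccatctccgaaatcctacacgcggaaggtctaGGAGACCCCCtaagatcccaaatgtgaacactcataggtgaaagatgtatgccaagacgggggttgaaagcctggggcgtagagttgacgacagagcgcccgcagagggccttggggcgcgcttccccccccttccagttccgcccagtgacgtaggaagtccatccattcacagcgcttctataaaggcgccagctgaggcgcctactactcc
Cxcl2: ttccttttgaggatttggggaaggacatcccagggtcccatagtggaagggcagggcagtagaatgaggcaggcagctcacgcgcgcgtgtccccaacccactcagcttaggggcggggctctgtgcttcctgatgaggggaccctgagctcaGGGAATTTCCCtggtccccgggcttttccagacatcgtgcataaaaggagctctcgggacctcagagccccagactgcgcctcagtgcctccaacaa
Csrnp1: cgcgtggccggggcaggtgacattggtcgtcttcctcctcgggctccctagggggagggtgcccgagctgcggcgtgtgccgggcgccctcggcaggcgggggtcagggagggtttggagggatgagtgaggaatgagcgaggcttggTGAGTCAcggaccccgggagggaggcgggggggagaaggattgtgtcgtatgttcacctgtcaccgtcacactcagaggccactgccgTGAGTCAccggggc
The first capital lies 188 bases before the start in Fosb, 214 in Fos and 97 in Cxcl2, and the AP-1 matches of Csrnp1 begin 102 and 14 bases before it. The entries of Nr4a3, Nr4a2, Atf3, Nr4a1, Ccn1 (2.16) and Bcl3 (1.98), which all rose more than Cxcl2 (1.94), held none of the motifs in the window.

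Over all 15614 genes with an entry, 9.49% held the kB motif, against 13.7% of the 582 called higher and 24.0% of the 75 that rose at least 2-fold. The AP-1 motif was in 7.12%, 8.76% and 10.7%. The CRE was in 2.33%, 4.81% and 10.7%, and the last share is 8 genes. The EGR motif was in 0.929%, 1.89% and 1.33% and CArG in 1.45%, 2.06% and 1.33%. A match is a run of letters and shows no binding, and the motifs overlap in part, since AP-1 and CRE sites share their outer letters. The CRE windows of 4 of those 8 genes, picked after their values were seen as the 4 with the largest rise, are given below in 30 bases each with the motif in capitals.
Has1: cagacttgtccTGACGTCAgccctcctcca
Btg2: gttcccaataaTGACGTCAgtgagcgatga
Maff: ggctggggcggTGACGTCActgcatgactg
Ch25h: agacggaagggTGACGTCActggggggagt
They lie at chr17:17855253-17855282 (minus strand), chr1:134079303-134079332 (minus), chr15:79347480-79347509 (plus) and chr19:34475191-34475220 (minus). The remaining 4 genes were Dusp1, Errfi1, Ppp1r15a and Slc25a25.

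Among cytokines, Il6 had the largest measured difference of all genes called. Interleukin 6 drives the acute phase response and signals through gp130 and STAT3. Il6 was at 4.13, 4.65 and 4.57 at 0 h and at 9.04, 9.03 and 8.81 at 2 h. The 0 h values lie near the 10th percentile of gene levels (4.38), and the difference of 4.51 ± 0.22 is a measured 22.8-fold rise (adjusted p = 8.24e-12). At so low a 0 h signal this fold is not exact and may be too small. Of 24 genes of the interleukin 6 and interleukin 10 families, 8 were called higher and 0 lower (median 0.20). They include feedback and receptor genes of the pathway: Socs3, which blocks gp130, rose by 2.64 (a second row rose by 1.06), Cish by 0.88, Osmr by 0.78, Stat3 by 0.39 and Il6ra by 0.27. The ligand Clcf1 rose by 0.56, a call lost without 0 h replicate 1 (adjusted p = 0.0516). The ligand genes Lif (−0.04), Il11 (−0.13), Il10 (0.25) and Il24 (0.34) were not called.

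In the interleukin 1 family, 1 of 13 genes was called. Il1b, made by myeloid cells and keratinocytes, was at 5.07, 6.47 and 5.28 and then at 8.88, 8.81 and 8.58, an 8.88-fold rise (3.15 ± 0.24, adjusted p = 1.34e-08). Every 2 h array lay above the high 0 h replicate 2. Il1a, its relative stored in keratinocytes, differed by 0.49, the antagonist Il1rn by 0.06 and the alarmin Il33 by −0.33, and none of them was called. Of 21 other wound cytokines 1 was called, where 3.98% of all genes were called higher and 4.00% lower. It was the angiogenic factor Vegfa (0.41 ± 0.11, adjusted p = 0.0228). That call was lost without 2 h replicate 3 (0.305, adjusted p = 0.144) and without each of the 3 arrays at 0 h. Tnf differed by 0.04, Csf3 by −0.08, Tgfb1 by 0.14 and Il17a by 0.04.

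Chemokines that attract monocytes and neutrophils rose. Of 40 chemokines and receptors tested, 16 were called higher and 0 lower (median 0.27). Ccl7 was at 6.75, 6.44 and 6.99 at 0 h and at 10.21, 10.16 and 9.80 at 2 h (3.33 ± 0.14, adjusted p = 4.22e-12). Ccl2, the main monocyte attractant, was at 6.47, 6.49 and 6.95 and then at 9.59, 9.59 and 9.31 (2.86 ± 0.13). In both genes 2 h replicate 3 was the lowest of its group. The neutrophil attractant Cxcl2 was at 5.06, 5.92 and 5.19 and then at 7.26, 7.72 and 7.02 (1.94 ± 0.25), and its relative Cxcl1 rose by 1.28. Ccl3 rose by 1.76, Ccl20, which attracts CCR6-bearing cells to epithelia, by 1.64 and the eosinophil attractant Ccl11 by 1.03. Ccl17, made by dendritic cells, was at 6.21, 6.85 and 7.14 and then at 8.72, 7.55 and 7.66 (1.24 ± 0.33, adjusted p = 0.0219). Cxcl9 was at 7.12, 7.06 and 8.98 at 2 h, so 2 h replicate 3 made much of its difference of 1.45, which was 0.82 without that array. Cxcl5 (0.07), Cxcl3 (0.03), Ccl4 (−0.00) and the resident chemokine gene Cxcl12 (−0.01) were not called.

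Markers of neutrophils rose in part. Of 26 tested, 11 were called higher and 0 lower (median 0.48). S100a8 was at 5.65, 5.94 and 5.82 at 0 h and at 7.90, 7.24 and 6.93 at 2 h (1.55 ± 0.23, adjusted p = 8.48e-05). S100a9 rose by 1.30, Retnlg by 1.48, the histidine decarboxylase gene Hdc by 1.42, the G-CSF receptor gene Csf3r by 1.10, Lcn2 by 0.94 and Cxcr2 by 0.91, and the last call was lost without 0 h replicate 3 (adjusted p = 0.0531). Ly6g, Mpo and Ngp, genes of neutrophils or their precursors, were among those not called. Ly6g was at 4.33, 4.24 and 4.27 and then at 4.42, 4.41 and 4.36, Mpo at 5.75, 5.86 and 5.75 and then at 5.88, 6.02 and 5.72, and Ngp at 4.36, 4.36 and 4.64 and then at 4.50, 4.49 and 4.38. Ly6g and Ngp lie near the 10th percentile of gene levels (4.38), where a small rise may be missed. The mean level over the 26 markers ran from 5.82 to 5.93 at 0 h, from 5.95 to 6.25 at 15 min, from 6.28 to 6.58 at 2 h and from 8.50 to 8.71 at 24 h. These markers rose in the same samples as the chemokines and as Il1b, and the part of arriving cells in those rises was not tested.

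Genes of the vessel wall, of prostaglandins and of clotting held a few strong members. The endothelial immediate early gene Apold1 was at 7.32, 7.49 and 7.29 and then at 9.76, 9.45 and 9.73 (2.28 ± 0.10, adjusted p = 4.74e-12). The adhesion genes Icam1 and Sele, which let leukocytes stop on endothelium, rose by 1.12 and 1.07, whereas Vcam1 (0.10) and Pecam1 (0.15) were not called. In all 4 of 14 endothelial genes were higher and 0 lower (median 0.13), where 3.98% of all genes were called higher and 4.00% lower. Ptgs2, the inducible cyclooxygenase, was at 6.10, 8.08 and 6.72 at 0 h and at 9.74, 9.72 and 9.81 at 2 h (2.79 ± 0.33, adjusted p = 4.98e-06). Its values were scattered at 0 h and close together at 2 h, without overlap. Of 13 genes of prostaglandins and kinins 4 were higher and 2 lower (median 0.01). Ptges, which makes prostaglandin E2, rose by 0.81 and the kinin receptor gene Bdkrb1 by 0.59, and Hpgd, which breaks prostaglandins down, fell by 0.30 (lost, for example, without 2 h replicate 2, adjusted p = 0.0633). Of 11 clotting and plasminogen genes 5 were higher and 1 lower (median 0.26). The urokinase receptor gene Plaur was at 6.48, 6.83 and 6.57 and then at 8.29, 8.26 and 8.25 (1.64 ± 0.12), while urokinase itself, Plau, fell by 0.37 (adjusted p = 0.00354). Tissue factor, F3, differed by 0.17 and was not called.

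Genes that build and bind hyaluronan, the large sugar polymer of loose wound matrix, were among the largest rises. Of 17 hyaluronan and matricellular genes 8 were called higher and 0 lower (median 0.22). Tnfaip6, which encodes TSG-6 and links proteins to hyaluronan, was at 6.83, 6.98 and 7.16 and then at 10.60, 10.61 and 10.33 (3.52 ± 0.20, an 11.5-fold rise, adjusted p = 1.21e-10). Has1, a hyaluronan synthase, was at 5.98, 6.14 and 6.04 and then at 9.48, 9.0 and 8.69 (3.00 ± 0.19). Has2 rose by 1.02 and Has3 by 0.43, and the TSG-6 partner Ptx3 rose by 0.93. The matrix genes Tnc (0.06), Postn (0.00) and Sparc (0.01) were not called. Among 18 metalloproteinases and inhibitors 5 were higher and 0 lower (median 0.15), or 3 without 0 h replicate 2. With the mean of all rows of a gene, 6 were higher. Adamts9 differed by 0.23 in the row used, and its other rows rose by 0.42 to 1.10. Adamts4, an aggrecanase, was at 6.25, 6.29 and 6.35 and then at 8.17, 8.23 and 8.38 (1.96 ± 0.09, adjusted p = 6.07e-12), and the inhibitor gene Timp1 rose by 0.90. Mmp3 (0.33), Mmp9 (−0.06) and Mmp13 (−0.15) were not called.

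Of the ligands of EGFR and the other ErbB receptors, 4 of 7 tested were called higher, and the EGFR ligand gene Areg was not analysed. Hbegf was at 7.55, 7.97 and 7.70 at 0 h and at 9.81, 9.77 and 10.01 at 2 h, a 4.36-fold rise (2.12 ± 0.13, adjusted p = 5.02e-10). Epgn, which encodes epigen, was at 5.45, 5.55 and 5.82 and then at 6.89, 7.04 and 7.29 (1.47 ± 0.16). Ereg, epiregulin, was at 7.88, 8.22 and 7.35 and then at 8.78, 8.76 and 9.10 (1.06 ± 0.21). Nrg1, a ligand of ErbB3 and ErbB4, rose by 0.37, a call lost without 2 h replicate 3 or 0 h replicate 2 (adjusted p = 0.0543 and 0.0556). Tgfa (0.32), Btc (0.49) and Egf (0.00) were not called, and the 2 h and 0 h arrays of Btc overlapped. None of the 4 receptors was called: Egfr differed by 0.01, Erbb2 by 0.04, Erbb3 by 0.01 and Erbb4 by 0.09. ADAM17 and iRhom2, the product of Rhbdf2, release several of these ligands from the membrane. Rhbdf2 was at 8.76, 8.69 and 8.64 and then at 9.03, 8.95 and 9.02 (0.30 ± 0.09, adjusted p = 0.0354), and the call was lost without any 1 of the 6 arrays (adjusted p up to 0.126). Adam17 fell by 0.21 ± 0.06 (adjusted p = 0.0274), a call lost without 2 h replicate 1 or 2 or 0 h replicate 1 or 2 (adjusted p up to 0.144). Over the 15 EGFR and ErbB genes 5 were higher and 1 lower (median 0.09), and 3 were higher without 2 h replicate 3 or 0 h replicate 2.

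Of 23 keratinocyte genes of the wound edge 4 were called higher and 0 lower (median 0.10), where 3.98% of all genes were called higher. Krt6a, a keratin of activated epidermis, was at 7.13, 7.25 and 7.61 and then at 8.26, 7.87 and 8.07 (0.74 ± 0.14, adjusted p = 0.00179). The integrin gene Itga5 rose by 0.79 and the envelope gene Sprr1a by 0.59, and Itga3 by 0.40, a call lost, for example, without 2 h replicate 3 (adjusted p = 0.157). Krt16 differed by 0.96 but was at 5.62, 5.82 and 7.15 at 0 h and at 7.07, 6.81 and 7.59 at 2 h, which overlap (adjusted p = 0.328). Of 30 genes of epidermal differentiation 2 were higher and 0 lower (median 0.09): Grhl3, a factor of epidermal wound repair, by 0.38, and the lipoxygenase gene Aloxe3 by 0.38. Without 2 h replicate 3 or 0 h replicate 2 or 3, 1 of them was called, and without 0 h replicate 1 there were 4 calls. Keratins of the intact layers differed by 0.01 for Krt10 and −0.05 for Krt5. Among 34 genes of BMP, Notch and Wnt responses 5 were higher, led by Id1 (0.79), and 2 lower, Wnt3 (−0.41) and Axin2 (−0.34), and the Wnt3 call was lost without 2 h replicate 2 or 0 h replicate 2 (adjusted p = 0.0553 and 0.0858).

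**Figure D2:**
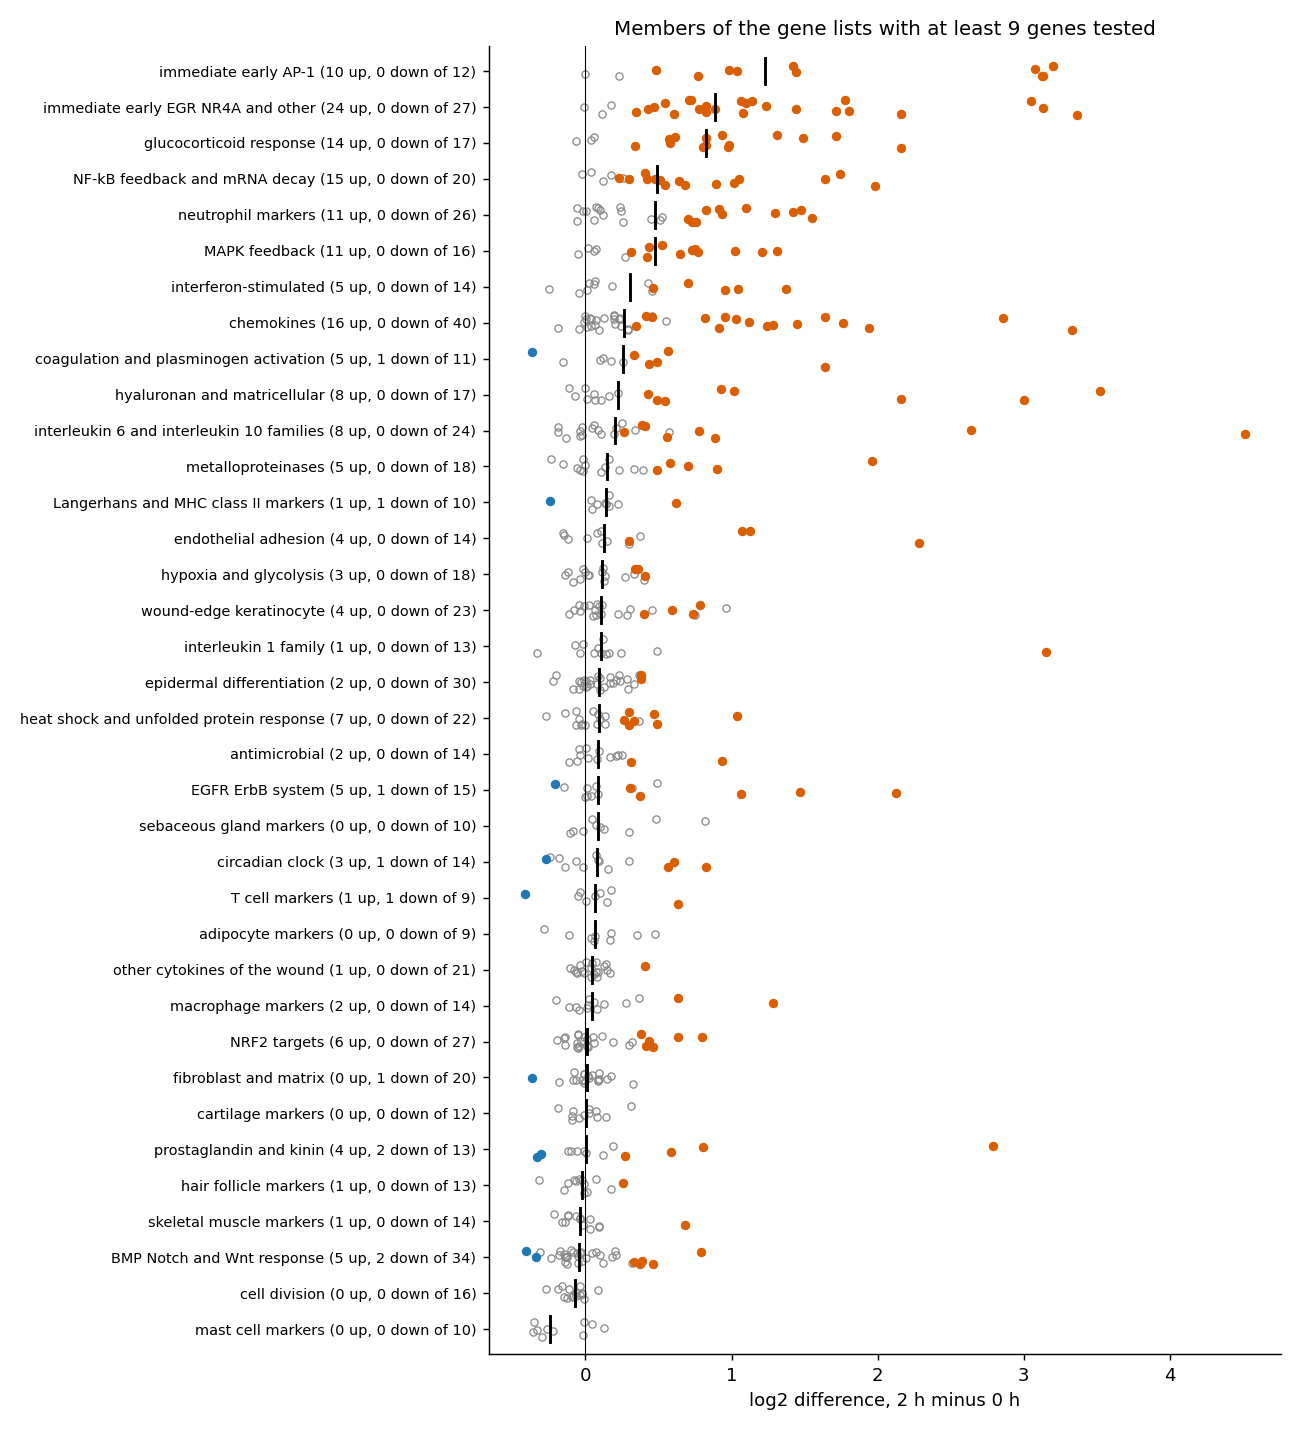
Each row is a gene list with at least 9 genes tested and each point a member, at its log2 difference, 2 h minus 0 h, on the x axis; filled orange and blue points were called higher and lower, open points were not called, and black bars are medians. AP-1 (median 1.23), other immediate early (0.89) and glucocorticoid response genes (0.82) stand to the right as groups, while interleukin 6 and 1 families have single far members.

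Genes that glucocorticoids induce, which are also reached by stress and cytokine signals, rose in 14 of 17 cases and fell in 0 (median 0.82). Dusp1 and Per1 are counted here and in another list, and Lcn2 is also counted among the neutrophil markers and the antimicrobial genes. Pdk4, a kinase that keeps pyruvate out of mitochondria, was at 7.29, 7.37 and 7.41 at 0 h and at 9.50, 9.25 and 9.79 at 2 h (2.16 ± 0.22, adjusted p = 9.69e-07). Cebpd rose by 1.71, the FK506-binding chaperone gene Fkbp5 by 1.49, the metallothionein gene Mt1 by 0.98, and the zinc finger genes Zbtb16 and Klf9 by 0.97 and 0.80. Fkbp5 was at 7.54, 7.34 and 7.39 and then at 9.25, 8.71 and 8.77. Tsc22d3, which encodes the glucocorticoid-induced GILZ, was at 9.96, 9.92 and 9.97 and then at 10.14, 10.05 and 9.77 and was not called (0.04), nor were Ddit4 (−0.06) and Hif3a (0.06). Of 14 clock genes 3 were called higher and 1 lower (median 0.08), where 3.98% of all genes were called higher and 4.00% lower. The period and cryptochrome genes Per1, Per2 and Cry2 rose by 0.83, 0.60 and 0.56. Dbp fell by 0.27, a call lost without any 1 of 5 of the 6 arrays (adjusted p up to 0.163), and the core activator Arntl (−0.06) and the repressor Nr1d1 (−0.02) were not called. The time of day of sampling is not given in the sources used here.

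NRF2, encoded by Nfe2l2, turns on genes of antioxidant defence, and its pathway is named in the study's title. Of 27 such genes 6 were called higher and 0 lower, where 3.98% of all genes were called higher, and their median of 0.01 compares with −0.01 over all genes. Hmox1, which degrades haem, was at 9.19, 8.94 and 8.86 at 0 h, at 9.60, 9.43 and 9.57 at 15 min and at 9.85, 9.81 and 9.73 at 2 h (0.80 ± 0.15 from 0 h, adjusted p = 0.00126). Bach1, the repressor of Hmox1, rose by 0.63, Srxn1 by 0.46, Nfe2l2 by 0.43, Txnrd1 by 0.42 and Osgin1 by 0.38. The classic target Nqo1 was at 8.64, 8.58 and 8.60 and then at 8.72, 8.36 and 8.80 (0.02), and the glutathione synthesis genes Gclc and Gclm differed by 0.19 and −0.05. None of these 3 was called, and none of the 5 glutathione and cystine genes was. Nqo1 was higher at 24 h than at 2 h, by 0.72 (adjusted p = 2.22e-05).

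Of 22 heat shock and unfolded protein genes 7 were higher and 0 lower (median 0.09), where 3.98% of all genes were called higher. Ppp1r15a, which encodes GADD34 and restores translation, rose by 1.04, Atf4 by 0.49 and the co-chaperone gene Bag3 by 0.47, while Hspa1a (0.05), Hspa5 (0.13) and Ddit3 (−0.02) were not called. Among 18 hypoxia and glycolysis genes 3 were higher and 0 lower (median 0.12), or 1 without 2 h replicate 3 or 0 h replicate 3. Of 14 interferon-stimulated genes 5 were higher and 0 lower (median 0.30). Only Irf1, also a target of NF-kB, was called without 2 h replicate 3, and the median was then 0.15. Irf1 was at 7.29, 7.16 and 7.40 and then at 8.52, 8.52 and 8.92 (1.37 ± 0.10, adjusted p = 3.11e-09), and a second, dim row of it differed by 0.09. Ifit1 was at 6.41, 5.90 and 7.49 at 2 h (1.04 ± 0.31, adjusted p = 0.0395), or 0.60 without the third array (adjusted p = 0.252). Mx1 (0.01) and Ifit3 (−0.25) were not called. Of 14 antimicrobial genes, Lcn2 and Slpi were called higher (0.94 and 0.31), and Slpi was lost without 2 h replicate 1 or 2 or 0 h replicate 1 or 2 (adjusted p up to 0.192).

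Markers of resident cells and structures changed little. No member was called among 10 mast cell, 12 cartilage, 9 adipocyte, 10 sebaceous, 6 melanocyte and 6 platelet genes, 2 erythroid genes and 16 genes of cell division, under the test that called 1590 genes in all. Over all genes that test called 3.98% higher and 4.00% lower. The mast cell list had the lowest median (−0.24). Its protease genes Mcpt4 and Cpa3 were at 9.70, 9.62 and 8.85 and at 10.43, 10.34 and 9.46 at 2 h, so 2 h replicate 3 alone was low. Of 14 macrophage genes 2 were higher: the endotoxin co-receptor gene Cd14 by 1.28 and the hyaluronan receptor gene Lyve1 by 0.63. The Langerhans cell gene Cd207, langerin, rose by 0.62 ± 0.10, and Ciita, the activator of MHC class II, fell by 0.24, a call lost without any 1 of the 6 arrays (adjusted p up to 0.188). Among 9 T cell genes Il2rb rose by 0.63 and Cd3g fell by 0.41, lost without 2 h replicate 1 or 2 or 0 h replicate 2 or 3 (adjusted p up to 0.175). Of 20 fibroblast and matrix genes only elastin, Eln, was called, lower by 0.36, and lost without 2 h replicate 1 or 3 or 0 h replicate 2 or 3 (adjusted p up to 0.226). Col1a1 (0.09), Col3a1 (−0.01) and Dcn (−0.01) were not called. Muscle had 1 of 14, Myh2 (0.68), lost without each array but 0 h replicate 1 (adjusted p up to 0.206), and hair follicle 1 of 13, the hair keratin gene Krt31 (0.26), lost, for example, without 2 h replicate 2 (adjusted p = 0.274).

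Genes on no list made up 35 of the 100 with at least a 2-fold rise. The interferon-inducible Ifi205 was at 7.69, 7.92 and 7.97 and then at 10.65, 10.69 and 10.09 (2.62 ± 0.27, adjusted p = 9.18e-07). Others with large rises, named after their values were seen, were Rgs1 (2.04), a brake on chemokine receptor signals, Cd83 (1.84), a marker of activated dendritic and B cells, and Nfil3 (1.84), a transcription factor of immune cells and the clock. Rgs1 was at 6.93, 6.95 and 7.86 at 2 h, with replicate 3 high. The gut hormone gene Pyy was at 7.51, 7.56 and 7.31 and then at 8.91, 8.43 and 9.08 (1.35 ± 0.17, adjusted p = 1.93e-05).

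The 797 falls were small. Xcl1, a chemokine of T and NK cells, was at 7.96, 7.38 and 8.63 at 0 h and at 7.07, 7.20 and 6.92 at 2 h (−0.93 ± 0.21, adjusted p = 0.00776), and was not called without 0 h replicate 3 (−0.61, adjusted p = 0.0542). Ccr4, a skin-homing receptor of T cells, was at 8.64, 8.79 and 8.74 and then at 8.06, 8.01 and 8.23 (−0.62 ± 0.09, adjusted p = 5.65e-05). The linker histone gene H1f1 fell by 0.82, the Norrin gene Ndp, a ligand of Frizzled 4, by 0.79, the lipolysis inhibitor gene G0s2 by 0.66 and the synapse adhesion gene Slitrk6 by 0.65. Ndp was at 7.37, 7.05 and 7.11 and then at 6.42, 6.35 and 6.38. H1f1 was at 9.57, 10.04 and 9.84 at 0 h, at 9.29, 9.24 and 9.12 at 15 min and at 8.99, 9.0 and 8.99 at 2 h. Its 2 h level was not called against 15 min (−0.22, adjusted p = 0.332). The zinc finger genes Zfp975 (−0.82), Zfp760 (−0.65) and Zfp931 (−0.64), completed this end with 4930412O13Rik, Tmem126b, Fam124b and Wdr5b, and the call of Zfp931 was lost, for example, without 2 h replicate 2 (adjusted p = 0.102).

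There were 2 microRNA genes among the 15 largest falls. The array probes the gene or its precursor transcript and does not count mature microRNA. Both mature 5p sequences are shown because their seeds (bases 2 to 8, in capitals), which pair with target mRNAs, differ and so mark separate families.
mmu-miR-181b-5p: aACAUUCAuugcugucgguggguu
mmu-miR-15a-5p: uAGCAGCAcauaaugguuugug
Mir181b-1 lies on chromosome 1 (mature 5p at 137966650 to 137966673, plus strand) and was at 5.72, 5.73 and 5.66 at 0 h and at 4.74, 4.84 and 5.16 at 2 h (−0.79 ± 0.10, adjusted p = 2.30e-05). Mir15a lies on chromosome 14 (61632075 to 61632096, minus strand) and was at 8.14, 8.13 and 8.12 and then at 7.15, 7.33 and 7.81 (−0.70 ± 0.14, adjusted p = 0.00300). At 15 min Mir15a was at 7.53, 7.34 and 7.67, and its 2 h values overlapped with these (−0.08, adjusted p = 0.856). Mir181b-1 was at 5.41, 5.56 and 5.69 at 15 min, all above its 2 h arrays (−0.64, adjusted p = 0.000380).

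The rims of 15 min give an earlier time point of the punched ear. Against 0 h they had 7 genes called higher (0.0351%) and 0 lower: Fos, Zfp36, Cnfn, Prss8, Trex2, Rny3 and Snord49b. Whether the 0 h pieces were cut like the rims is not given, as said above. Cnfn, Prss8 and Trex2 are genes of the outer epidermis. Fos was at 9.20, 8.38 and 8.89 at 15 min, between its 0 h and 2 h values, and Zfp36 at 9.55, 9.35 and 9.38. The rims of 2 h had 524 genes higher (2.63%) and 615 lower (3.08%) than those of 15 min, 1139 in all, and between 624 and 873 without 1 array of either group. Of the 793 genes called higher at 2 h against 0 h, 459 were also called higher against 15 min. Of the 797 called lower against 0 h, 307 were also called lower against 15 min. The contrast with 15 min, between pieces cut alike, uses the same 2 h arrays as the contrast with 0 h, so the 2 are not independent. In it, 10 of 12 AP-1 genes, 24 of 27 other immediate early genes, 14 of 17 glucocorticoid response genes, 13 of 20 NF-kB feedback genes and 9 of 26 neutrophil markers were higher and 0 lower. Il6 differed from 15 min by 4.36 (adjusted p = 2.11e-11), Fosl1 by 3.08 and Has1 by 3.04. By contrast Hmox1 differed from 15 min by 0.26 and was not called (adjusted p = 0.378), and Ccl17, Ifit1 and Cxcl9 were not called either (0.46, 0.79 and 0.95). Of 10 mast cell genes, 5 were lower at 2 h than at 15 min and 0 higher, while none was called against 0 h. Their mean level ran from 7.15 to 7.19 at 0 h, from 7.24 to 7.57 at 15 min and from 6.71 to 7.22 at 2 h. As given above, 2 h replicate 3 alone was low for Mcpt4 and Cpa3.

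By 24 h the groups had parted. Against 2 h, 4209 genes were higher (21.1%) and 4075 lower (20.4%), and against 0 h 4081 were higher (20.5%) and 4462 lower (22.4%). Of the 12 AP-1 genes 9 were lower at 24 h than at 2 h and 1 higher, and of the 27 other immediate early genes 16 were lower and 5 higher. Fosb was at 7.83, 7.78 and 8.51 at 24 h, below 2 h by 3.45 (adjusted p = 3.17e-08), Nr4a1 was lower by 2.57, Atf3 by 2.18, Has1 by 1.91 and Apold1 by 1.64. Il6 was at 8.31, 7.89 and 8.62, lower than at 2 h by 0.69 (adjusted p = 0.0144). The neutrophil markers went the other way, with 19 of 26 higher and 0 lower, as did chemokines with 28 of 40 higher and 1 lower, and wound-edge keratinocyte genes with 19 of 23 higher and 0 lower. Il1b was at 11.59, 11.44 and 11.49 at 24 h, above 2 h by 2.75 (adjusted p = 8.64e-09). Epgn was above it by 4.02, S100a8 by 4.04, Cxcl2 by 3.95, Krt6a by 3.81, Ccl3 by 3.76 and Ptgs2 by 1.31. Of the 17 glucocorticoid response genes 11 were lower at 24 h than at 2 h and 2 higher, and of 14 clock genes 11 were lower and 0 higher. All 14 muscle genes and 11 of 12 cartilage genes were lower at 24 h than at 2 h, and the part of tissue composition in this contrast was not tested.

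**Figure D3:**
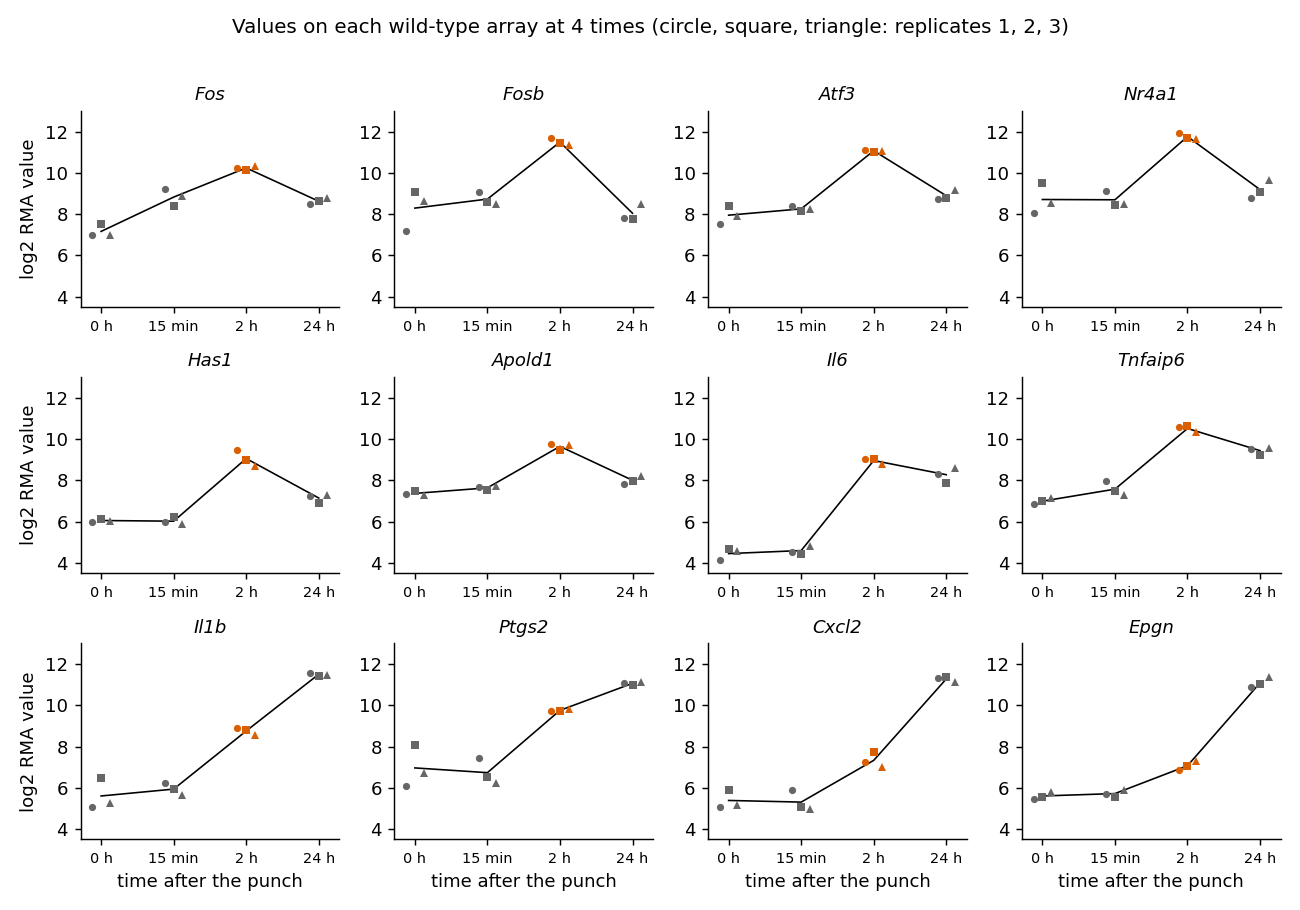
Each panel gives the log2 RMA values of 1 gene (y axis) on the 3 wild-type arrays at 0 h, 15 min, 2 h (orange) and 24 h after the punch (x axis, not to scale), with a line through the means. Fosb, Atf3, Nr4a1, Has1 and Apold1 are highest at 2 h, Il6 and Tnfaip6 stay within 1.07 of their 2 h mean at 24 h, and Il1b, Ptgs2, Cxcl2 and Epgn are higher at 24 h.

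The same 2 h change was measured in cub, whose Rhbdf2 mutation alters iRhom2. The change differed between genotypes in 26 genes (0.130%), and in 2029 at an unadjusted p under 0.05. The number is fragile: it ran from 1 to 45 when 1 array was left out, falling to 1 without replicate 2 of either genotype at 0 h and reaching 45 without cub 2 h replicate 2. Cub minus wild type, the difference of the changes was positive in 21 of the 26 genes and negative in 5. The positive ones include 3 of 6 melanocyte genes, Tyrp1 (1.35), Dct (1.08) and Tyr (0.77). Pdk4, among the negative ones, was the only 1 of the 164 genes named by rule to differ. In wild type it rose by 2.16, while in cub it was at 9.83, 10.67 and 9.66 at 0 h and at 9.60, 10.25 and 9.50 at 2 h. The cub arrays at 0 h overlapped with the wild-type 2 h arrays or lay above them, and the cub change of −0.27 was not called (adjusted p = 0.529). The difference of the changes was −2.43 ± 0.32 (adjusted p = 0.00359), called in each fit that left out 1 array and lost without moderation of the variances (adjusted p = 0.0565). Ucp3, a mitochondrial carrier gene chosen here after its values were seen, had the same shape. It was at 5.73, 5.95 and 5.82 and then at 6.78, 6.71 and 7.29 in wild type, and at 7.24, 7.47 and 6.84 and then at 6.88, 7.18 and 7.07 in cub (−1.23 ± 0.24, adjusted p = 0.0390), but its call was lost in 13 of 21 alternatives (adjusted p up to 0.142). Arc, an immediate early gene also chosen afterwards, rose by 0.78 in wild type and by 2.02 in cub, where it was at 8.80, 8.70 and 8.60 at 2 h (1.24 ± 0.21, adjusted p = 0.0268, lost in 9 of 21 alternatives). Other leading genes changed by like amounts: Il6 rose by 4.51 in wild type and 4.50 in cub, Fos by 3.08 and 2.73, Hbegf by 2.12 and 2.27 and Fkbp5 by 1.49 and 1.53. Their differences between genotypes were not called, with adjusted p from 0.808 to 0.995.

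**Figure D4:**
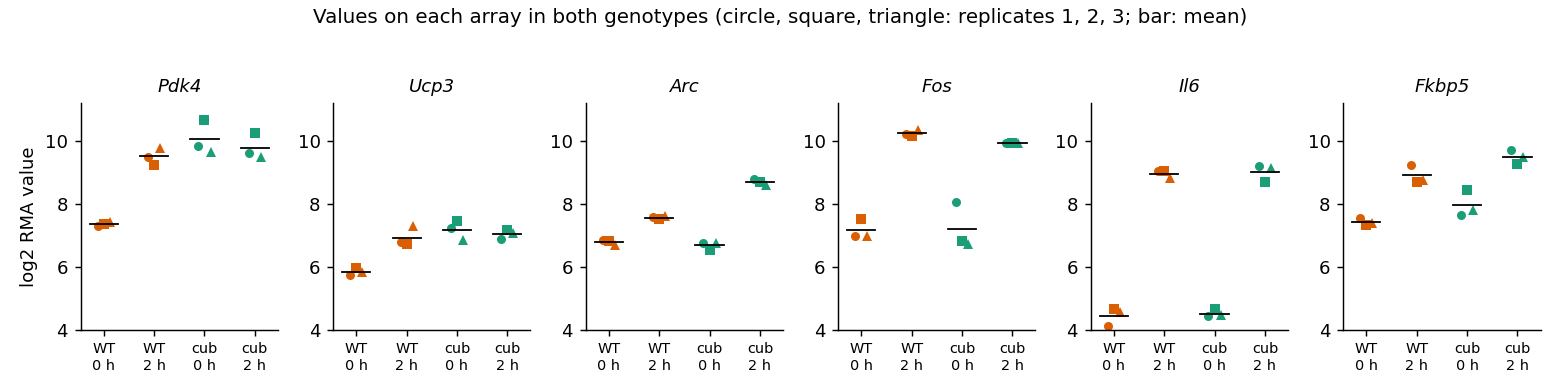
Log2 RMA values (y axis) of 6 genes on each array of wild type (orange) and cub (green) at 0 h and 2 h, with bars at the means. Pdk4 and Ucp3 rise in wild type from a lower start and stay level in cub, Arc rises further in cub, and Fos, Il6 and Fkbp5 rise in both.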

How the data were processed

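Total RNA from ear tissue was hybridised to Affymetrix Mouse Gene 1.0 ST arrays. The deposited log2 values were made by the authors with Expression Console 1.1 and RMA, per the submitters' processing notes; the version of the annotation is not given in the sources used here. RMA corrects background, normalizes quantiles and summarises probes over all arrays together, so an equal shift of most genes cannot be seen.

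The table has 35556 rows. A symbol came from the platform table, updated to RefSeq (GRCm38.p6) through gene IDs: 21789 rows had 1 gene symbol, 1621 several and 12146 none, and rows with several or none were not used. Of several rows naming a gene (999 genes), the brightest on average was kept. The design text names R/maanova; here limma 3.58.1 in R 4.3.3 fitted 1 mean per group over all 23 arrays (15 residual degrees of freedom) with moderated variances. Tests are two-sided. Gene lists hold 681 genes, of which 634 were tested and 47 not analysed, among them Nfkb1, Selp and Areg. Genes were named by a rule: the 15 largest rises and 15 largest falls among called genes without overlap between the arrays, up to 6 called members per list, and preset list members; among these, a genotype difference in the change is reported. The members and lists were chosen with earlier results of these data known. Whether replicates came from separate animals rests on the titles. Fits were tested on simulated data, and the alternatives, whose effects are given below, change 1 choice at a time, except that trended and robust moderation were set together.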

Additional observations from a re-analysis of the deposited data

Results flagged for a closer look

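The change of Pdk4 from 0 h to 2 h differed between the genotypes by the interaction test. It was 2.16 in wild type and −0.27 in cub, and the difference, cub minus wild type, was −2.4267 (adjusted p = 0.00359). Over 21 alternatives that difference ran from −2.66 to −2.12 and was called in 20.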

How the results depend on the processing

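The counts of calls moved with the fit and with single arrays, while no named gene changed sign past the threshold. Of 149 named genes called, 116 were called in each alternative and 33 were lost in at least 1. Among 15 not called, 1 was gained. Of the 634 listed genes tested, 184 were called, and 159 to 168 without 1 array. With array weights the 2 h against 0 h contrast called 2712 genes, 1232 higher and 1480 lower, and the contrast with 15 min 3232. Without 1 array it called 983 to 1248 genes, 555 to 703 higher and 378 to 601 lower (519, 378 and 504 lower without 2 h replicates 1, 2 and 3, 398 and 520 without 0 h replicates 2 and 3), and the contrast with 15 min 624 to 873 (668 and 624 without 15 min replicates 2 and 3, 746 and 688 without 2 h replicates 2 and 3). The contrast of 24 h with 2 h gave 7533 to 7776. The genotype difference gave 26 calls, but 2 with every row tested, 10 with only the arrays compared, 4 with a replicate block, 1 without moderation and 173 with array weights, and 1 to 45 without 1 array. Arrays scaled by their medians gave 869 higher and 749 lower at 2 h, and quantile normalization 925 and 1067. The median difference over all genes was 0.003 and −0.011 in these fits, against −0.007 in the reported fit. Trended and robust moderation together gave 1596 calls, the mean of all rows of a gene 1583, every row tested 1606, only the arrays compared 1500 and no moderation 1467. Requiring a group mean of at least 6 left 13741 genes, 834 higher and 865 lower.

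Replicate numbers did not pair the arrays: deviations of same-numbered 0 h and 2 h arrays correlated at −0.149, −0.238 and −0.26. A fit with the replicate block called 1494 genes, 753 higher and 741 lower, of which 1465 were shared with the fit without it. Low signal limits dim genes such as Il6 at 0 h, whose folds RMA may understate.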

Other observations

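Genes with a numbered Zfp symbol, most of which encode zinc finger proteins that bind DNA, were grouped after the values of some of them were seen, and whether they differ from other genes was not tested. Of 347 such genes tested, 48 were called lower (13.8%, against 4.00% of all genes) and 9 higher, with a median difference of −0.10. Their median was 0.00 between 15 min and 0 h and −0.11 between 24 h and 0 h in wild type, and −0.07 between 2 h and 0 h in cub. The 3 largest were Zfp975 (−0.82), Zfp760 (−0.65) and Zfp931 (−0.64).

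Other genes with falls outside the lists, again chosen after seeing the values, were Sucnr1, the succinate receptor, by −0.62, Aplnr, the apelin receptor, by −0.61, and Cysltr1, a leukotriene receptor, by −0.59. Rgs18, a regulator of G protein signalling, differed by −0.62, opposite to Rgs1 (2.04), Rgs2 (1.05) and Rgs16 (1.03).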
